A study of Mus musculus with 24 samples.

Results

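Lung RNA from mice fed a diet rich in docosahexaenoic acid (DHA) was compared with lung RNA from mice fed a control diet, all of them exposed to filtered air. The comparison used 12 of the 24 libraries in the series, 6 per diet, taken by their titles, and 16153 of the 26253 listed genes had enough reads to be tested. The other 12 libraries came from mice on the same diets that were exposed to ozone, and they share the fit's estimate of the spread and give the diet comparison after ozone. The labels give no strain, age, DHA content, feeding time or ozone dose, and they do not say whether each library came from a separate mouse, so the p-values measure only the spread between these libraries, which may be technical. The question addressed here is how the diet alone changed lung RNA in mice without ozone.

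DHA is a long-chain omega-3 fatty acid that is built into membrane phospholipids, serves as a precursor of oxygenated lipids called oxylipins, and can act on fatty acid receptors and on the transcription factors of the PPAR and SREBP families. Alveolar type 2 cells, which make surfactant lipid and surfactant proteins, are the main site of phospholipid synthesis in lung. The circadian clock, which also runs in lung, is a loop of activators and repressors. In it Arntl (BMAL1), Clock and Npas2 switch on the repressors Per and Cry and the nuclear receptors Nr1d1 and Nr1d2. Many of these genes rise and fall over the day, each at its own time.

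At a Benjamini-Hochberg adjusted p below 0.05 in edgeR's quasi-likelihood test, 117 genes were higher and 69 were lower on the DHA diet, together 1.15% of the genes tested (0.724% higher and 0.427% lower). The changes were small. The median fold change was 1.23 among the higher genes and 0.738 among the lower ones. Of these passing genes only 3 rose and 1 fell by a factor of 2 or more. At an unadjusted p below 0.05 there were 1367 higher and 1431 lower genes, 17.3% of those tested. The 6 DHA-diet libraries lay wholly above the 6 control-diet libraries for 208 genes (1.29%) and wholly below them for 91 genes (0.563%), together 1.85%. Of these, 85 and 25 passed the test. With scaling by library totals alone the split was 72 higher and 113 lower genes. Other tools passed more genes, 317 higher and 272 lower in DESeq2 and 408 and 441 in limma-voom. In the 12 air libraries alone edgeR passed 187 and 172. Counts of list members in such settings are to be read against the totals of the same setting.

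The control-diet libraries were not alike. On the first principal component of the 12 libraries, which held 22.1% of the variance, control-diet libraries 1, 2 and 3 stood at -23.2, -27.4 and -18.7. Control-diet libraries 4, 5 and 6 stood at -4.43, 3.31 and 14.7, among the DHA-diet libraries at -0.169 to 19.5. The mean log2 level of 74 cytosolic ribosomal protein genes was 6.13 to 6.20 in control-diet libraries 1 to 3, 6.54 to 6.58 in libraries 4 to 6 and 6.35 to 6.56 on the DHA diet. Without control-diet libraries 1 to 3, edgeR's quasi-likelihood test passed 0 genes, with a smallest adjusted p of 0.104 and 1094 higher and 1182 lower genes at an unadjusted p below 0.05. In the same libraries DESeq2 passed 147 higher and 57 lower and limma-voom 143 and 93. Without libraries 4 to 6 instead, edgeR passed 655 higher and 896 lower genes. The 117 higher genes had a median log2 fold change of 0.30 against all control libraries, 0.26 without libraries 1 to 3 and 0.31 without libraries 4 to 6. The 69 lower genes had -0.44, -0.32 and -0.55. Of the 186 genes, 115 higher and 62 lower ones kept an unadjusted p below 0.05 without libraries 1 to 3. Of all 186, 61 passed in DESeq2 and 62 in limma-voom. DESeq2 gave some genes, Cry1 among them, no adjusted p, and these were counted as not passing. The 186 genes were picked in a fit that held these same libraries. Their counts and medians here are therefore not a separate check.

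**Figure D1:**
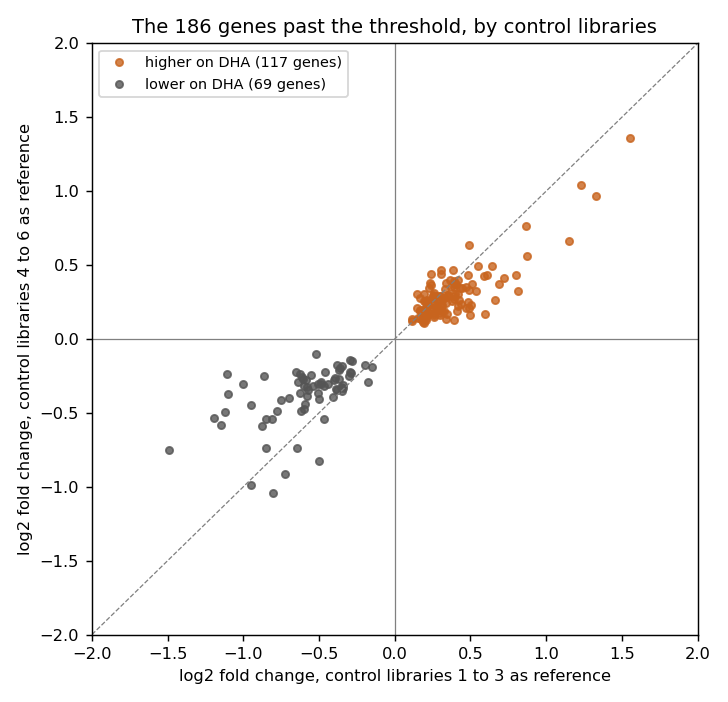
Log2 fold change (DHA over control diet, filtered air) of the 186 genes past the threshold, computed without control-diet libraries 4 to 6 (x axis) and without libraries 1 to 3 (y axis), 1 point per gene and a dashed line of equality. Both estimates use the same 6 DHA-diet libraries; most of the 69 lower genes lie nearer to 0 on the y axis, with a median of -0.32 against -0.55.

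Leaving out single libraries also moved the counts. The count of higher genes was 37, 40, 77 and 51 without control-diet library 1, 2, 3 or 4, 277 without control-diet library 6, and 73, 63, 71, 72 and 41 without DHA-diet library 1, 2, 3, 4 or 5. The count of lower genes was 12, 13, 28 and 41 without control-diet library 1, 2, 3 or 4, 439 without control-diet library 6, and 39, 36, 26 and 18 without DHA-diet library 2, 3, 4 or 5. The tissue label held in all 12 libraries, where Sftpc of type 2 cells was at 15432 to 26826 counts-per-million (CPM), the club cell gene Scgb1a1 at 8.21 to 11.1% of all counts, and Ager of type 1 cells at 1812 to 2419 CPM. Library totals were 19145371 to 22688070 counts on the control diet and 20921758 to 26225630 counts on the DHA diet. An exact two-sided permutation test over 924 arrangements gave p = 0.0887 for the difference of their means.

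Of 21 clock genes tested, 4 rose on the DHA diet (Bhlhe40, Cry1, Per2 and Nr1d2) and 0 fell, against 0.724% of all genes tested that rose, and the list's median log2 fold change was 0.28 against 0.004 over all genes. The 6 DHA-diet libraries lay wholly above the control-diet libraries for 6 of the 21 and wholly below for 1, the activator Arntl. Over all genes tested these shares were 1.29% and 0.563%. Bhlhe40, a repressor that competes with BMAL1 at its sites, is at chromosome 6, 108637590 to 108643887 in mm39. Its lowest, median and highest levels were 54.4, 59.8 and 68.5 CPM on the control diet and 76.6, 79.0 and 92.3 CPM on the DHA diet. Every DHA-diet library was above every control-diet library, with a log2 fold change of 0.43 ± 0.07 (± standard error, here and for every log2 fold change) and an adjusted p of 0.00628.

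Cry1, a core repressor that binds the CLOCK and BMAL1 pair, is at chromosome 10, 84967564 to 85020919. It was at 8.90, 13.5 and 14.9 CPM (lowest, median, highest) on the control diet and 16.1, 18.2 and 21.3 CPM on the DHA diet, again without overlap, for a log2 fold change of 0.53 ± 0.11 and an adjusted p of 0.0158. Per2, the partner of the cryptochromes in the repressor complex, is at chromosome 1, 91343704 to 91387051. It stood at 50.6, 59.5 and 73.0 CPM on the control diet and 68.4, 93.5 and 102 CPM on the DHA diet, where 1 DHA-diet library fell within the control range, for a log2 fold change of 0.58 ± 0.12 and an adjusted p of 0.0173. Nr1d2 (REV-ERBβ), a haem-binding receptor that represses Arntl, is at chromosome 14, 4230590 to 4265641. It was at 134, 152 and 175 CPM against 179, 207 and 215 CPM without overlap, with a log2 fold change of 0.40 ± 0.09 and an adjusted p of 0.0261. The call of Nr1d2 ended without control-diet library 1 or 3 or DHA-diet library 1, 2, 3 or 5, and that of Per2 without control-diet library 1, where 2 of the 4 genes passed. Without control-diet libraries 1 to 3 edgeR's quasi-likelihood test passed 0. In those libraries DESeq2 passed Bhlhe40, Nr1d2, Per2 and Rora as higher, and limma-voom passed Bhlhe40, Nr1d2 and Rora as higher and Arntl as lower. DESeq2 gave no adjusted p for Cry1 there. Bhlhe40, Per2, Rora and Nr1d1 overlap the listed start-to-end span of another annotated gene, so their counts may hold reads of both. The same holds for Fkbp5, Slc34a2, Abca3, Dnaic1, Dpt, Timp3, Ddr2, Acta2, Fabp3, Plin4, Fads1, Lgr6, Adamts9, Hspa8 and Xist. For Per2, Dpt and Lgr6 the other gene is Rnu6, for Fkbp5 Gm27740 and Gm27775, and for Acta2 Mir3084-1, Mir3084-2 and Snora19. The listed spans of these also cover many other genes, so shared bases are not shown.

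The promoters of Cry1 and Nr1d2 are shown because both genes rose and are textbook targets of the clock loop, which CLOCK and BMAL1 drive through E-boxes and the ROR and REV-ERB receptors tune through a hexamer of their own. The sequences are RefSeq's, build GRCm38.p6, from 250 bases before to 50 bases after the annotated start, in the direction of transcription; 17 of the 22 clock genes on the list had at least 1 entry. In Cry1 (chr10:85185005-85185304, minus strand) the capitals mark the E-box letters CACGTG, which read the same on both strands and begin 60 bases before the start. In Nr1d2 (chr14:18239057-18239356, minus strand) they mark AGGTCA, the hexamer read by nuclear receptors, 77 bases before the start. The Nr1d2 bases shown hold no CACGTG, and the Cry1 bases shown hold no AGGTCA on either strand. Searched on both strands, CACGTG was in 7.15% of all 32851 promoters in the RefSeq table and AGGTCA in 16.3%. Of the 25 promoters of clock genes, 6 held the first and 5 the second. A match is a description of these letters only.
Cry1: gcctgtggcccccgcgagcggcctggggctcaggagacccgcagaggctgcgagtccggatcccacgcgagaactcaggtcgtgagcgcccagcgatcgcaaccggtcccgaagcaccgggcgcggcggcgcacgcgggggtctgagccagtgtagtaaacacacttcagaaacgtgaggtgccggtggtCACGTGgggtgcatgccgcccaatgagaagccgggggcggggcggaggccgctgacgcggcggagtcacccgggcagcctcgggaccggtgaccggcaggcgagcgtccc
Nr1d2: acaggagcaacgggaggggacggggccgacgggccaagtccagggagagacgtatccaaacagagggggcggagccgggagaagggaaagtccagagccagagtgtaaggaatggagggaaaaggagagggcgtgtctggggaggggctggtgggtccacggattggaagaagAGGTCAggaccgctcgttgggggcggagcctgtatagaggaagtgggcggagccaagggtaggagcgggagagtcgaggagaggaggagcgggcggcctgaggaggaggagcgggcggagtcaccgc

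Other clock genes did not pass in edgeR's quasi-likelihood test over all 24 libraries and are given as values. In the 12 air libraries alone edgeR passed 8 higher and 1 lower, with 1 surrogate variable 11 and 1, and DESeq2 and limma-voom each passed 7 and 1. The surrogate variable was -0.882 in DHA-diet ozone library 1, its most extreme value. In air it ran from 0.0886 to 0.183 on the control diet and from -0.0671 to 0.0682 on the DHA diet. It thus differed with the diet, and the 11 and 1 cannot be told apart from its overlap with diet and that library. The PAR bZIP factors Tef and Hlf, which drive clock output through D-boxes, stood at 311, 339 and 371 against 395, 412 and 476 CPM and at 37.6, 43.7 and 50.3 against 51.8, 62.0 and 71.2 CPM, both without overlap. Their log2 fold changes were 0.32 ± 0.08 and 0.49 ± 0.14, with adjusted p of 0.0505 and 0.0684. Rora, an activator of Arntl, was at 47.7, 50.3 and 55.7 against 57.6, 59.7 and 63.4 CPM, also without overlap (log2 fold change 0.23 ± 0.06, adjusted p = 0.0581). On the activator side, Arntl was at 5.27, 6.88 and 8.13 CPM on the control diet and 2.05, 2.98 and 4.95 CPM on the DHA diet, with all 6 DHA-diet libraries below the control range. It had a log2 fold change of -0.99 ± 0.31 and an adjusted p of 0.0989. Npas2, the CLOCK paralog, was at 2.48, 3.91 and 5.48 against 0.910, 2.29 and 3.45 CPM with overlapping groups (log2 fold change -0.81 ± 0.26, adjusted p = 0.105). Clock itself differed by -0.10 ± 0.10 and Nr1d1, the paralog of Nr1d2, by 0.04 ± 0.10 on the log2 scale, with adjusted p of 0.637 and 0.895. The labels do not give the hour at which the lungs were taken.

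**Figure D2:**
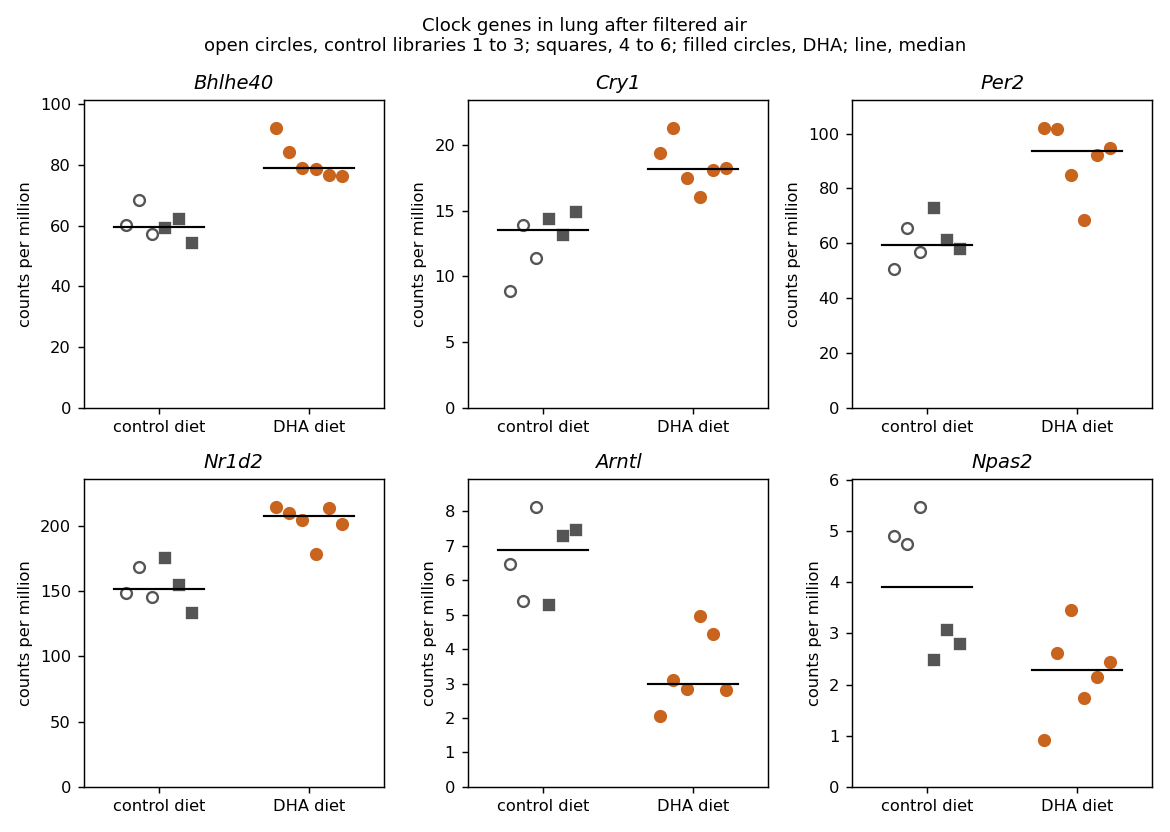
CPM of 6 clock genes in each filtered-air library, with control-diet libraries 1 to 3 as open circles, 4 to 6 as squares, DHA-diet libraries as filled circles and a line at each group's median. Bhlhe40, Cry1 and Nr1d2 do not overlap between the diets; Arntl is lower in all 6 DHA-diet libraries, and in Npas2 control-diet libraries 4 to 6 lie within the DHA-diet range.

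Fkbp5, which encodes a chaperone of the glucocorticoid receptor and is itself switched on by that receptor, had the largest rise among the genes named by the rule for this comparison. It is at chromosome 17, 28617727 to 28705124. The gene was at 13.1, 21.3 and 23.9 CPM on the control diet and 27.4, 31.1 and 51.4 CPM on the DHA diet, without overlap, for a log2 fold change of 0.82 ± 0.19 and an adjusted p of 0.0311. This call ended when control-diet library 1, 2 or 4 or DHA-diet library 5 or 6 was left out, with log2 fold changes of 0.68 to 0.88 over all 12 single-library omissions. Of 20 glucocorticoid-induced genes it alone passed in that fit, 0 fell and the list median was 0.12, where 0.724% of all genes tested rose. In limma-voom 2 rose and 1 fell, in the 12 air libraries alone 2 rose, and without control-diet library 6, 2 rose and 1 fell. Zbtb16, another gene with strong induction by glucocorticoids, spread from 26.7 to 103 CPM on the control diet and from 28.1 to 304 CPM on the DHA diet (log2 fold change 1.37 ± 0.42, adjusted p = 0.0885). Map3k6, a stress-activated kinase, and the metallothionein Mt2 had log2 fold changes of 0.65 ± 0.21 and 0.50 ± 0.21 with adjusted p of 0.114 and 0.206. Tsc22d3 (GILZ) and Sgk1, also glucocorticoid targets, differed by 0.25 ± 0.17 and -0.06 ± 0.08 with adjusted p of 0.466 and 0.773, and Pdk4, which slows glucose oxidation, by -0.93 ± 0.28 in the other direction (adjusted p = 0.0877).

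Some alveolar type 2 genes rose on the DHA diet. Of 20 tested, 6 rose (Sftpc, Lyz2, Slc34a2, Napsa, Lamp3 and Etv5), 0 fell and 19 had a positive log2 fold change, with a median of 0.18. Over all genes tested 0.724% rose and 51.6% were positive. DESeq2 passed 7 of the list and limma-voom 11 as higher, where they passed 317 and 408 of all 16153 genes as higher. Sftpc, which encodes surfactant protein C and is among the most abundant transcripts of lung, is at chromosome 14, 70758382 to 70761522. Its lowest, median and highest levels were 15432, 18188 and 25307 CPM on the control diet and 23600.2, 24999 and 26826 CPM on the DHA diet (log2 fold change 0.37 ± 0.09, adjusted p = 0.0338). Its 5 lowest control-diet libraries were below every DHA-diet library, and the remaining one, library 5, was within their range. Etv5, a transcription factor that maintains type 2 cells, is at chromosome 16, 22200063 to 22258321 and was at 88.7, 105 and 119.6 against 124, 136 and 154 CPM without overlap (log2 fold change 0.37 ± 0.06, adjusted p = 0.00628).

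Slc34a2, the phosphate carrier of type 2 cells, was at 842, 986 and 1131 CPM on the control diet and 1141, 1250.5 and 1351 CPM on the DHA diet, also without overlap (log2 fold change 0.35 ± 0.08, adjusted p = 0.0222). Napsa, the protease that processes surfactant protein B, was at 207, 244 and 302 against 296, 316 and 344 CPM (adjusted p = 0.0184). Lamp3, a lamellar body protein, was at 285, 328 and 380.4 against 366, 401 and 427 CPM (adjusted p = 0.0314). Lyz2, a lysozyme that macrophages express as well, was at 4392, 4859 and 6231 against 6050.5, 6460.4 and 6858 CPM (adjusted p = 0.0261). In all 3 of these genes the lowest DHA-diet value lay below the highest control value. The surfactant genes Sftpb and Sftpa1 and the lipid pump Abca3, which loads lamellar bodies, did not pass, with log2 fold changes of 0.15 ± 0.06, 0.15 ± 0.07 and -0.02 ± 0.08 and adjusted p of 0.191, 0.251 and 0.938. The count of 6 became 1 without control-diet library 1, 2 or 4, 10 without control-diet library 5, and 3, 2 and 2 without DHA-diet library 3, 4 or 5. Without control-diet libraries 4 to 6 it was 11, where 655 of all 16453 genes tested passed as higher. Without control-diet libraries 1 to 3 edgeR passed 0, while DESeq2 and limma-voom both passed Etv5 and Slc34a2. Bulk tissue cannot separate more cells of a type from more RNA per cell. The mean log2 level of the list was 8.92 to 9.11 in control-diet libraries 1 to 3, 8.94 to 9.32 in 4 to 6 and 9.22 to 9.39 on the DHA diet. Among 16 alveolar type 1 genes, the markers of the thin gas-exchange cells, 0 passed in edgeR and the median was 0.06.

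**Figure D3:**
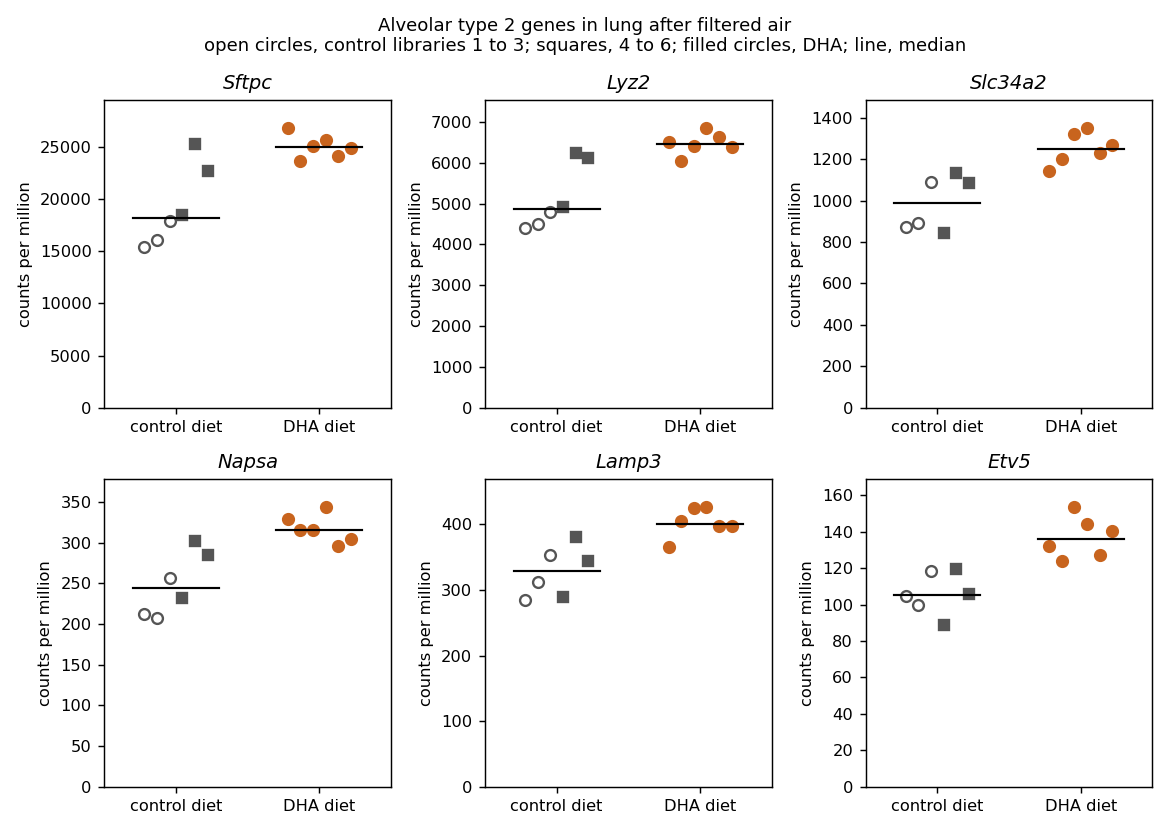
CPM of the 6 alveolar type 2 genes that passed, in each filtered-air library (symbols as for the clock genes, line at the median). In Sftpc, Lyz2 and Napsa control-diet libraries 1 to 4 are low and libraries 5 and 6 reach toward or into the DHA-diet range; Slc34a2 and Etv5 do not overlap.

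All 20 club and goblet cell genes and all 21 ciliated cell genes had negative log2 fold changes, with medians of -0.26 in both. Over all genes tested 48.4% were negative. In edgeR over all 24 libraries 0 genes passed in either list, and 8 and 12 were lower at an unadjusted p below 0.05 (8.86% of all genes tested). In the 12 air libraries alone edgeR passed 0 and 6 as lower, DESeq2 passed 2 in each list and limma-voom 5 and 7. The same 3 settings passed 172 of 15827 genes, and 272 and 441 of 16153 genes, as lower. Bpifa1, a secreted airway protein, had a log2 fold change of -0.84 ± 0.27 (adjusted p = 0.102), and Scgb3a1, a secretoglobin, -0.38 ± 0.12 (adjusted p = 0.11). Scgb1a1, the main club cell secretoglobin, was at 82123, 96383 and 113133 CPM on the control diet and 81351, 88131 and 95629 CPM on the DHA diet (adjusted p = 0.591). Among ciliated genes Dnaic1, a dynein intermediate chain, was at 19.3, 23.6 and 29.5 against 15.2, 17.5 and 19.4 CPM (log2 fold change -0.42 ± 0.12, adjusted p = 0.0642). Foxj1, the regulator of motile cilia, was at 254, 310.2 and 349 against 215, 248 and 309 CPM (adjusted p = 0.222). The mean log2 level of the ciliated list was 6.08 to 6.24 in control-diet libraries 1 to 3, 5.67 to 6.02 in libraries 4 to 6 and 5.65 to 5.93 on the DHA diet. Without control-diet libraries 4 to 6, 8 club and goblet genes and 10 ciliated genes passed as lower, and without control-diet library 6 alone 4 and 5. These fits passed 896 of 16453 and 439 of 16217 genes as lower. Without control-diet library 5, 1 ciliated gene passed. Tekt2, a tektin of the ciliary axoneme that is on neither list and was picked after its values were seen, fell from 24.2, 29.5 and 30.9 to 18.9, 20.1 and 24.8 CPM (log2 fold change -0.45 ± 0.10, adjusted p = 0.0311).

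Of 28 fibroblast and matrix genes 1 rose and 0 fell, 24 had a positive log2 fold change and the median was 0.16, where 0.724% of all genes tested rose and 51.6% were positive. DESeq2 passed 5 as higher, limma-voom 8, and edgeR 5 in the 12 air libraries alone and 7 without control-diet libraries 4 to 6. The same settings passed 317, 408, 187 and 655 of all genes as higher. The gene that passed was Dpt, which encodes dermatopontin of the collagen matrix. It was at 129, 143 and 178 CPM on the control diet and 168, 189.6 and 209 CPM on the DHA diet (log2 fold change 0.37 ± 0.08, adjusted p = 0.0156), and the call ended without control-diet library 1 or 2. Sparc, Postn and Col1a2, a matrix glycoprotein, periostin and a fibrillar collagen chain, had log2 fold changes of 0.27 ± 0.07, 0.28 ± 0.08 and 0.22 ± 0.06 with adjusted p of 0.0529, 0.0625 and 0.0763. Without control-diet library 6, 6 genes of the list passed, and without DHA-diet library 6, 2. Off the list, and picked after their values were seen, Timp3, an inhibitor of matrix proteases, rose from 485, 549.5 and 580.0 to 625.2, 677 and 721 CPM (log2 fold change 0.31 ± 0.06, adjusted p = 0.00696). Ddr2, a collagen receptor, rose from 94.6, 98.8 and 102 to 119, 125 and 138 CPM (log2 fold change 0.37 ± 0.06, adjusted p = 0.00628). The intermediate filament gene Vim rose from 515, 587 and 603 to 655, 681 and 760.1 CPM (log2 fold change 0.27 ± 0.06, adjusted p = 0.0145). In all 3 of these genes no DHA-diet library fell within the control range.

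Some muscle genes were lower on the DHA diet. The smooth muscle list had 2 of 17 called lower, 0 higher and a median of -0.07. Acta2, smooth muscle actin, was at 129, 183 and 208 CPM on the control diet and 104, 136 and 154 CPM on the DHA diet, and Cnn1, calponin, at 28.1, 52.7 and 59.4 against 26.9, 36.3 and 38.7 CPM. Their groups overlapped, and the log2 fold changes were -0.40 ± 0.09 and -0.50 ± 0.12 with adjusted p of 0.0212 and 0.0448. Cardiac muscle genes, which in mouse lung come from the muscle sleeves of the pulmonary veins or from heart tissue taken along, had 2 of 20 called lower (Csrp3 and Fabp3), all 20 negative and a median of -0.44, where 0.427% of all genes tested fell and 48.4% were negative. Csrp3, a muscle LIM protein, was at 39.4, 43.5 and 52.0 against 23.5, 30.8 and 37.4 CPM, and Fabp3, the fatty acid carrier of heart and muscle, at 24.7, 27.6 and 37.9 against 16.7, 22.2 and 23.8 CPM. Neither overlapped between the diets, and the log2 fold changes were -0.55 ± 0.13 and -0.47 ± 0.11 with adjusted p of 0.0314 and 0.0318.

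The muscle calls changed with the tool and with single libraries. DESeq2 passed 5 smooth muscle and 5 cardiac genes as lower, limma-voom 5 and 6, and edgeR in the 12 air libraries alone 1 and 7. The same settings passed 272, 441 and 172 of all genes as lower. Without control-diet library 1 or 2, 0 smooth muscle and 0 cardiac genes passed, and without control-diet library 6, 6 and 9. Without control-diet libraries 4 to 6, 7 and 10 passed as lower, where 896 of all genes did, and without libraries 1 to 3, 0 and 0. Without DHA-diet library 5, 0 smooth muscle genes passed, and 1 did without control-diet library 3, 4 or 5 or DHA-diet library 1, 2, 3 or 4. Of the cardiac genes 0 passed without DHA-diet library 3 or 4, 1 without control-diet library 4 or DHA-diet library 1, 2 or 5, and 4 without DHA-diet library 6. The summed level of the cardiac list was 2147 to 3539.8 CPM on the control diet and 1627 to 2604 CPM on the DHA diet, and the highest values were in control-diet libraries 1 and 2. Skeletal muscle genes summed to 118 to 155 against 77.7 to 116 CPM, and adipocyte genes to 392 to 553 against 296 to 499 CPM. In both of these lists 0 genes passed in edgeR over all 24 libraries, with medians of -0.42 and -0.55. At an unadjusted p below 0.05, 7 of 15 and 11 of 16 were lower, against 8.86% of all genes tested. In the 12 air libraries alone edgeR passed 2 and 1 as lower. DESeq2 passed 2 in each of these lists and limma-voom 6 and 5. Plin4, a lipid droplet protein of fat cells, was at 15.4, 24.5 and 30.8 against 11.8, 14.5 and 21.6 CPM (adjusted p = 0.0691). The labels do not say how the lungs were trimmed, and the part of muscle and fat tissue in the other results was not tested.

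**Figure D4:**
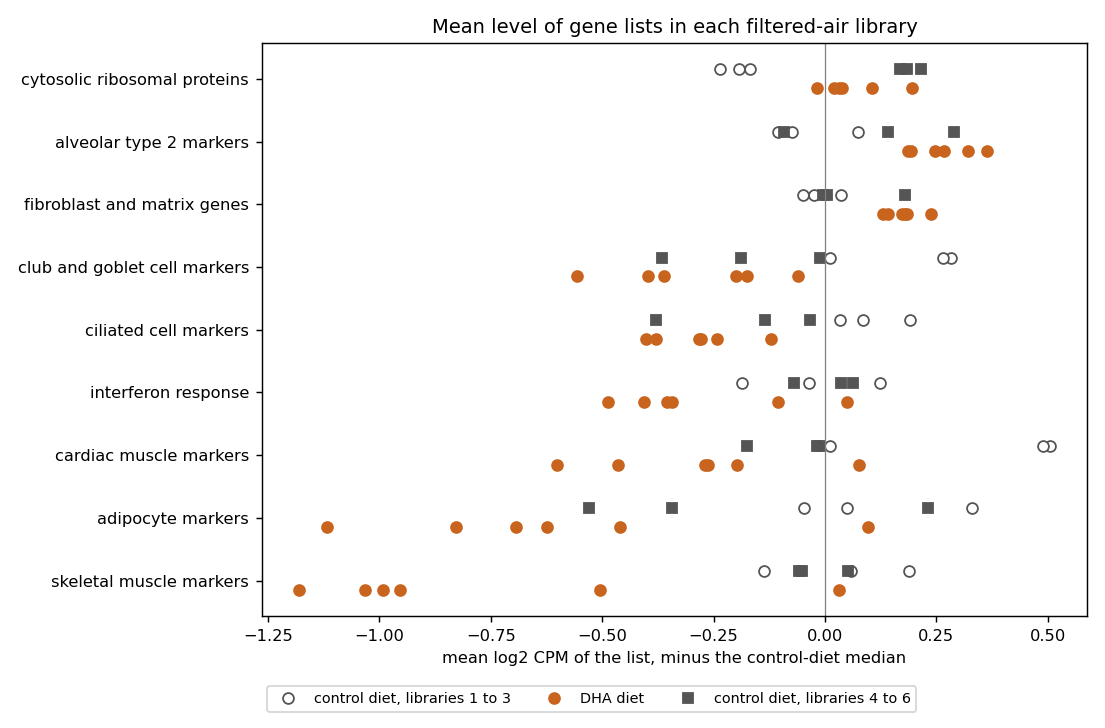
Mean log2 CPM of 9 gene lists in each filtered-air library, as the difference from the list's control-diet median, with control-diet libraries 1 to 3 (open circles), 4 to 6 (squares) and the DHA diet (filled circles). The ribosomal list separates control-diet libraries 1 to 3 from 4 to 6, the club and ciliated lists have control-diet libraries 1 to 3 highest, and the cardiac list has libraries 1 and 2 highest.

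Of 40 interferon response genes, 2 fell on the DHA diet, Cmpk2 among them, and 0 rose, 37 had a negative log2 fold change and the median was -0.24. Over all genes tested 0.427% fell and 48.4% were negative. DESeq2 passed 3 of the list as lower and limma-voom 8, where they passed 272 and 441 of all genes as lower. Cmpk2, a mitochondrial nucleotide kinase induced by interferon, was at 32.9, 37.2 and 39.5 CPM on the control diet and 25.9, 28.2 and 31.3 CPM on the DHA diet without overlap (log2 fold change -0.36 ± 0.07, adjusted p = 0.00976). Oasl2 and Irf7, an antiviral OAS-like protein and the regulator of type I interferon genes, had log2 fold changes of -0.35 ± 0.10 and -0.34 ± 0.12 and adjusted p of 0.0625 and 0.149. The mean log2 level of the list was 4.20 to 4.51 on the control diet and 3.90 to 4.43 on the DHA diet, where library 1 was highest. Without DHA-diet library 1, 8 of the 40 passed as lower, and 1 passed without control-diet library 1 or 2 or DHA-diet library 2, 3, 4 or 6. Cmpk2 also passed in DESeq2 and limma-voom without control-diet libraries 1 to 3.

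Of 25 cytokine and acute-phase genes, 1 fell and 0 rose in edgeR with a median of 0.08, where 0.427% of all genes tested fell. In the 12 air libraries alone 2 rose. The gene that fell was Nos2, the inducible nitric oxide synthase, at 4.94, 6.27 and 9.30 CPM on the control diet and 3.08, 3.99 and 5.35 CPM on the DHA diet (log2 fold change -0.66 ± 0.15, adjusted p = 0.0314). Its call ended in 7 of the 12 single-library omissions, those of control-diet libraries 1, 3, 4 and 5 and DHA-diet libraries 1, 4 and 5. Of 23 chemokine genes 1 rose and 0 fell, where 0.724% of all genes tested rose. This was Cxcl14, made by stromal and epithelial cells, which went from 94.3, 109 and 134 to 124, 134 and 138 CPM (log2 fold change 0.26 ± 0.07, adjusted p = 0.0466). That call ended in every single-library omission but that of control-diet library 6. Without control-diet libraries 4 to 6, 5 chemokine genes passed as higher and 0 as lower. In the neutrophil, alveolar macrophage, monocyte, T cell, B cell, NK cell and MHC class II lists 0 genes passed in edgeR, with medians from -0.22 to 0.17. DESeq2 and limma-voom each passed 5 genes in all, at most 1 per list. Without control-diet libraries 4 to 6 edgeR passed 4 T cell, 3 MHC class II and 3 alveolar macrophage genes as higher. It passed 1 alveolar macrophage and 2 neutrophil genes as lower there, and 0 monocyte, B cell and NK cell genes. That fit passed 655 higher and 896 lower of 16453 genes tested. The smallest adjusted p in these lists was that of Cd86, a co-stimulatory protein of antigen-presenting cells, at 4.58, 5.22 and 5.90 against 6.00, 6.86 and 9.32 CPM without overlap (log2 fold change 0.46 ± 0.12, adjusted p = 0.0601).

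In edgeR's quasi-likelihood test 0 genes passed in the lists of polyunsaturated fatty acid desaturases and elongases (15 tested, median 0.06), SREBP1 lipid synthesis (21, -0.09), SREBP2 cholesterol synthesis (23, -0.08), LXR targets (16, 0.09), DHA transport and phospholipid remodelling (24, 0.01), phospholipases A2 (15, 0.02), oxylipin enzymes (30, -0.02) and lipid mediator and fatty acid receptors (21, 0.03). At an unadjusted p below 0.05 these lists held 4, 3, 5, 4, 6, 5, 5 and 3 genes, against 17.3% of all genes tested. All 5 in the SREBP2 list were lower and 20 of its 23 genes were negative, against 8.86% and 48.4% of all genes tested. All 4 in the LXR list were higher and 11 of its 16 genes were positive, against 8.46% and 51.6%. DESeq2 passed 1 gene each in the transport, oxylipin and receptor lists, and limma-voom passed those counts plus 2 SREBP1 genes and 1 phospholipase. The desaturases Fads1 and Fads2, which make long-chain polyunsaturated fatty acids from dietary precursors, differed by 0.06 ± 0.06 and 0.12 ± 0.06 on the log2 scale with adjusted p of 0.658 and 0.302. Elovl5, the elongase of that pathway, was at 181, 184 and 196 CPM on the control diet and 187, 199.8 and 212 CPM on the DHA diet (log2 fold change 0.10 ± 0.04, adjusted p = 0.15). Lpcat4, a phospholipid acyltransferase, was at 28.5, 31.1 and 33.9 against 22, 25.3 and 30.5 CPM (log2 fold change -0.27 ± 0.07, adjusted p = 0.0656).

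Among oxylipin genes, Ptgis, prostacyclin synthase, was at 90.5, 106 and 127 CPM on the control diet and 116, 129.5 and 136 CPM on the DHA diet (log2 fold change 0.27 ± 0.08, adjusted p = 0.0774). Ephx2, the soluble epoxide hydrolase that turns epoxy fatty acids into diols, was at 7.04, 7.71 and 10.5 against 5.19, 6.61 and 7.29 CPM (log2 fold change -0.35 ± 0.13, adjusted p = 0.153). The prostaglandin E2 receptor gene Ptger2 was at 4.72, 6.20 and 7.10 against 5.47, 8.42 and 9.85 CPM (adjusted p = 0.0742). Lgr6, which has been described as a receptor for a DHA-derived mediator, was at 7.37, 15 and 20.4 against 7.37, 9.97 and 12.8 CPM (adjusted p = 0.17). Among 34 PPAR targets and fatty acid oxidation genes Fabp3, the heart fatty acid carrier named above, was the 1 gene lower in edgeR. The list had 27 negative genes and a median of -0.10, where 0.427% of all genes tested fell and 48.4% were negative. DESeq2 passed 4 of the list as lower and limma-voom 7, and edgeR 13 without control-diet libraries 4 to 6. The same settings passed 272, 441 and 896 of all genes as lower. That list, which shares Fabp3 with the cardiac list, had 8 genes lower without control-diet library 6, 2 without control-diet library 5, 3 without DHA-diet library 6 and 0 without control-diet library 1, 2 or 4 or DHA-diet library 1, 3 or 4.

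In the stress lists, edgeR passed 0 of 22 heat shock, 22 unfolded protein response, 29 NRF2 antioxidant and 24 immediate early genes, with medians of 0.14, 0.08, 0.05 and -0.02. DESeq2 and limma-voom each passed 1 unfolded protein response and 1 immediate early gene, and 0 in the other two lists. Dnajb9, an endoplasmic reticulum chaperone, was at 52.8, 60.1 and 65.7 CPM on the control diet and 64.8, 68.8 and 77.6 CPM on the DHA diet (log2 fold change 0.22 ± 0.06, adjusted p = 0.0667). The 34 cell cycle genes had 0 called, 0 at an unadjusted p below 0.05 in either direction and a median of 0.09. Of 74 cytosolic ribosomal protein genes 0 passed in edgeR, 1 in DESeq2 and 2 in limma-voom (median 0.05). Without control-diet libraries 4 to 6, 37 were called higher, where 655 of all 16453 genes tested were.

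The 4 smallest p-values belonged to genes outside these lists. Cys1, which encodes cystin of the primary cilium, rose from 22.8, 26.9 and 31.3 CPM (lowest, median, highest) to 38.2, 45.8 and 49.4 CPM, a log2 fold change of 0.72 ± 0.11 and an adjusted p of 0.00307. Rapgef5, an exchange factor for Rap GTPases, rose from 113, 118 and 134 to 153, 159 and 173 CPM (log2 fold change 0.42 ± 0.06, adjusted p = 0.00307). Pde7b, a phosphodiesterase that degrades cyclic AMP, rose from 31.3, 34.5 and 36.4 to 40.7, 46.0 and 50.5 CPM (log2 fold change 0.42 ± 0.06, adjusted p = 0.00307). None of these 3 overlapped between the diets, nor did Enpep, aminopeptidase A of the vessel wall, which rose from 95.7, 97.0 and 101 to 110.1, 117 and 121 CPM (log2 fold change 0.25 ± 0.04, adjusted p = 0.00307). Enpep changed by a factor of only 1.19, with a narrow spread in both groups.

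On the lower side, Slc15a2, a peptide transporter, fell from 38.3, 51.8 and 66.7 to 31.3, 33.1 and 39.5 CPM, with control-diet library 5 inside the DHA-diet range (log2 fold change -0.59 ± 0.11, adjusted p = 0.00774). Fam189a2, a membrane protein, fell from 146, 156 and 176 to 113, 129.6 and 136 CPM without overlap (log2 fold change -0.31 ± 0.06, adjusted p = 0.007). Fer1l4, a ferlin-related transcript, fell from 4.42, 6.59 and 7.19 to 3.53, 3.65 and 4.60 CPM and Glb1l2, a galactosidase-like protein, from 46.2, 51.8 and 57.5 to 40.5, 41.7 and 46.3 CPM, with adjusted p of 0.0133 and 0.0133. In both of these the lowest control-diet library lay within the DHA-diet range. Of the 40 named genes that passed, 12 also passed in each of the 12 single-library omissions: Cys1, Cry1, Bhlhe40, Pde7b, Rapgef5, Enpep, Etv5, Slc15a2, Fam189a2, Fer1l4, Cmpk2 and Glb1l2. None of the 40 passed in edgeR's quasi-likelihood test without control-diet libraries 1 to 3, where the adjusted p of Rapgef5, Enpep and Pde7b was 0.104 for each. DESeq2 gave 0.00213 for Rapgef5 and Enpep and 0.00425 for Pde7b.

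Other large rises included Adamts9, a matrix protease, with a log2 fold change of 0.61 ± 0.16, Rasd2, a small GTPase related to Ras (0.57 ± 0.12), Prmt8, an arginine methyltransferase (0.52 ± 0.11), and Creb5, a bZIP transcription factor (0.57 ± 0.15), with adjusted p of 0.0473, 0.0218, 0.0222 and 0.049. Their control-diet medians were 11.5, 7.54, 13.5 and 5.83 CPM. The call of Adamts9 ended in 10 single-library omissions, that of Creb5 in 9, of Prmt8 in 5 (control-diet libraries 1 to 4 and DHA-diet library 5) and of Rasd2 in 3 (control-diet library 3 and DHA-diet libraries 1 and 3). Large falls included Otx1, a homeobox gene, from 4.42, 6.47 and 8.22 to 3.17, 3.57 and 4.69 CPM, and Trim63, a muscle ubiquitin ligase, from 5.28, 7.52 and 8.40 to 2.87, 4.40 and 5.70 CPM, with log2 fold changes of -0.78 ± 0.17 and -0.70 ± 0.17 and adjusted p of 0.0245 and 0.042. In Otx1, control-diet libraries 1 to 3 were at 7.77 to 8.22 CPM and libraries 4 to 6 at 4.42 to 5.16 CPM. These calls ended in 6 and 8 single-library omissions, and Otx1 had a log2 fold change of -0.37 without control-diet libraries 1 to 3 against -1.10 without libraries 4 to 6.

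Xist, the RNA that coats the inactive X chromosome, fell from 4.42, 6.13 and 9.28 CPM to 2.20, 3.16 and 4.77 CPM (log2 fold change -0.92 ± 0.23, adjusted p = 0.0482), with 1 control-diet library inside the DHA-diet range. The Y-linked gene Ddx3y was at 72.9 to 85.4 CPM in all 12 libraries. Xist overlaps its antisense gene Tsix and no source used here gives the strand setting of the counting, so reads of the pair cannot be told apart. The call ended in 10 single-library omissions. The 4 genes that passed and changed by a factor of 2 or more were all rare transcripts. Mettl21e, P4ha3 and Kcng1, a methyltransferase-like gene, a prolyl hydroxylase subunit and a potassium channel subunit, rose with log2 fold changes of 1.46 ± 0.37, 1.15 ± 0.23 and 1.14 ± 0.27, and Hand2, a transcription factor, fell with -1.17 ± 0.28. Their control-diet medians were 0.537, 0.988, 0.519 and 1.36 CPM, and the adjusted p were 0.049, 0.0133, 0.0348 and 0.0374.

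After ozone the same diet comparison, made in the other 12 libraries of the series, which share none with the comparison in air, passed 0 genes in edgeR's quasi-likelihood test (smallest adjusted p 0.0793), with 2260 genes (14%) at an unadjusted p below 0.05. Of the 117 genes that rose in air, 104 also had a positive log2 fold change after ozone, against 51.8% of all genes tested, and of the 69 that fell, 62 had a negative one, against 48.2%. Their medians were nearer to 0 after ozone, at 0.11 against 0.30 for the higher genes and -0.19 against -0.44 for the lower ones. The genes were picked by their values in air. Over all genes tested the log2 fold changes in air and after ozone had a Pearson correlation of 0.322, across genes that are not independent replicates. The test of the difference itself, the interaction of diet and exposure, passed 0 genes (smallest adjusted p 0.166, 988 genes or 6.12% at an unadjusted p below 0.05), while DESeq2 passed 5 and limma-voom 2, and edgeR passed 3 without control-diet library 6 and 4 without control-diet libraries 4 to 6.

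Single genes differed in how their ozone values compared. Fkbp5 had a log2 fold change of 0.72 after ozone against 0.82 in air. The clock genes Bhlhe40, Cry1, Per2 and Nr1d2 had 0.11, 0.03, 0.08 and 0.03 after ozone, and the list's median was -0.03. Arntl had 0.33 after ozone against -0.99 in air. The interaction had an adjusted p of 0.658 for each of these 4 genes and for Arntl. Etv5, the type 2 cell factor, had -0.08 after ozone and the smallest adjusted p of the interaction, 0.166. The interferon list had a median of -0.26 after ozone against -0.24 in air, and the ciliated list -0.29 against -0.26. The cardiac list had -0.07 against -0.44, and the adipocyte list 0.00 against -0.55. In DHA-diet ozone library 1, Scgb1a1 was at 5.51% of all counts, against 7.62 to 12.3% in the other ozone libraries. Nr1d2 was at 107 CPM there, against 152 to 177 CPM in the rest of its group. Per2 was at 42.9 against 48.3 to 71.8 CPM and Bhlhe40 at 75.8 against 90.5 to 113 CPM, but Cry1 was not lowest there. The mean log2 level of the ciliated list was 4.98 against 5.62 to 5.92. No fit of the comparison after ozone left this library out.

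**Figure D5:**
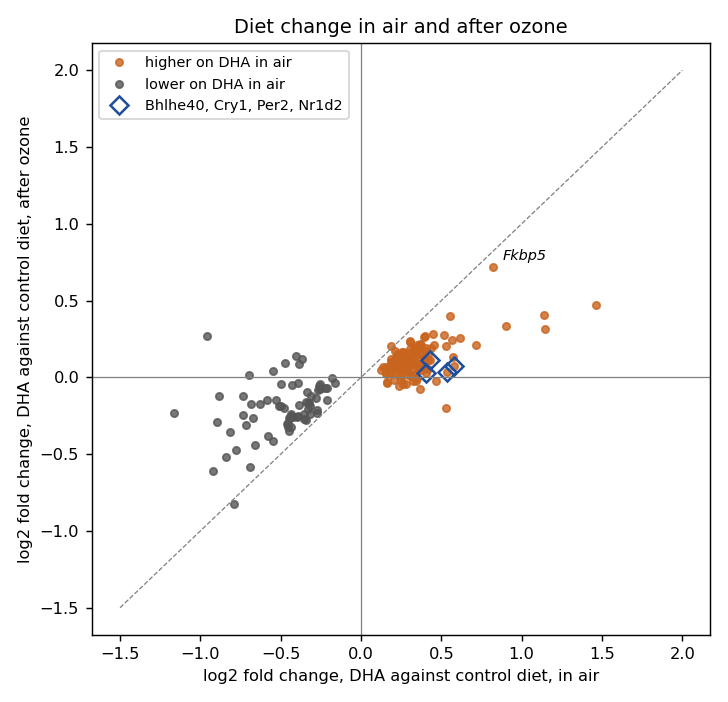
Log2 fold change of DHA over control diet in filtered air (x axis) and after ozone (y axis) for the 186 genes that passed in air, with a dashed line of equality and the 4 clock genes marked by diamonds. Fkbp5 lies near the line at 0.82 and 0.72; the clock genes lie near 0 on the y axis.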

How the data were processed

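The series holds 24 mouse lung RNA-seq libraries in 4 groups of 6, of which 12 were exposed to filtered air. The authors deposited raw read counts per gene as 1 table, with the mm39 build, Partek, STAR and HTSeq named without roles or versions per the submitters' processing notes. No source used here gives the strand setting or the handling of reads shared by overlapping genes. The listed start-to-end spans of 48 of the 186 genes past the threshold overlap that of another annotated gene. Some of these overlaps are with a span, such as that of Rnu6, that covers many genes. Groups were taken from the sample titles.

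The deposited counts were tested in R 4.3.3 with edgeR 4.0.16 (filterByExpr with a minimum count of 10 and a minimum total of 15, TMM scaling, glmQLFit and glmQLFTest, 1 mean per group over all 24 libraries, 20 residual degrees of freedom), with Benjamini-Hochberg adjustment over all 16153 genes tested and a threshold of 0.05. Diet in air, diet after ozone and their interaction were contrasts of that fit. CPM values are TMM-scaled. The script was tested on simulated data with 200 changed genes. Alternatives used DESeq2 1.42.0, limma 3.58.1, sva 3.50.0, other scalings and filters, a replicate block, the air libraries alone and the omission of libraries; DESeq2 and limma-voom without control-diet libraries 1 to 3 were added after the data had been seen. Library totals were compared with an exact permutation test.

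The comparison and the 47 gene lists were chosen with earlier results of these data known. Named genes were the 10 largest changes and 5 smallest p-values in each direction among genes past the threshold with at least 5 CPM and an established name, up to 4 passing members of each list, and up to 2 members of a list without one. Other members given as values were picked after their values were seen, and so were Sftpc and Lamp3. The values of 1 called gene are not reported here. Depth ran from 19145371 to 26225630 counts per library in air, and its precision is that of read counting plus the spread between libraries.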

Additional observations from a re-analysis of the deposited data

Results flagged for a closer look

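In 9 of 224 groups of 6 values (112 named genes, 2 diets in air), 1 library stood apart from the other 5 by a gap above 0.625 of the group's range, where chance gives about 1 group in 20. On the DHA diet, library 2 was high in Hspa8, a constitutive heat shock protein, at 883.6 CPM against 454.1 to 565.6 CPM in the others, and in Nfe2l2 (NRF2) at 217.9 CPM, and low in the prostaglandin receptor gene Ptger2 at 5.473 CPM. DHA-diet library 4 was low in Nr1d2, the clock repressor that passed the test, at 178.7 CPM, and in Fabp3, the heart fatty acid carrier, at 16.68 CPM. DHA-diet library 1 was low in the mesothelial gene Msln at 180.4 CPM and in Nrgn at 25.75 CPM, and DHA-diet library 5 was high in Adap2 at 18.64 CPM. On the control diet, library 6 was high in the immediate early gene Egr2 at 5.282 CPM.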

How the results depend on the processing

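The counts of higher and lower genes were 72 and 113 with library totals only, 187 and 172 in the 12 air libraries alone, 317 and 272 in DESeq2, 408 and 441 in limma-voom, 0 and 0 without control-diet libraries 1 to 3, and 655 and 896 without libraries 4 to 6. With the replicate number as a block they were 64 and 21. Same-numbered libraries had correlations of -0.21 to 0.0783 and 2 of 12 matched best with their own number. The labels do not say whether the numbers pair the libraries, and these correlations cannot decide it. Without single libraries the counts ran from 37 to 277 and from 12 to 439, and the interaction count, 0 in the fit as reported, from 0 to 3. The interaction count was 5 in DESeq2, 2 in limma-voom and 4 without control-diet libraries 4 to 6. The cause of these shifts was not tested. For the 40 named genes that passed, 608 of 880 alternative values kept the direction and the threshold, 272 lost the threshold and 0 changed sign. These genes were picked in the full fit, whose libraries the alternatives reuse. Of 72 named genes that did not pass, 4 changed sign: without control-diet libraries 1 to 3 the log2 fold changes were -0.00384 for Tra2a, -0.039 for H2-Aa and 0.55 for Krt5, and without libraries 4 to 6 it was 0.14 for Ccl25.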
